A study of Homo sapiens with 6 samples.

Results

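PROS1, GAS6 and the receptors TYRO3, AXL and MERTK make up the TAM system of 2 ligands and 3 receptor tyrosine kinases, and these 5 genes were followed among the 33007 genes of the expression table. They were found by gene symbol, and each symbol had a single entry. PROS1 was chosen by its measured counts, which were lower in the knockdown, and the other 4 genes complete its ligand and receptor family, so the knockdown and control values below describe the members and no test of them is given. RNA-seq was performed on LM3 cells, an established human hepatocellular carcinoma line, labelled wild type in genotype throughout. The 3 control samples carried the vector and the 3 ZNF706 knockdown samples carried a stable lentiviral short hairpin RNA against ZNF706, a small zinc finger protein. Whether each line was a pool or 1 clone, which hairpin it carried and whether the 3 samples of a group were separate cultures are not given in the sources used here, so p-values measure only the spread between these samples. Total counts ran from 62684076 to 64713764 in the control samples and from 65861994 to 69057423 with knockdown.

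Protein S, the product of PROS1, is a vitamin K-dependent plasma protein made largely by the liver, and in blood it acts as a cofactor of activated protein C and of tissue factor pathway inhibitor. Protein S and its homologue GAS6 also bridge phosphatidylserine on dying cells to TAM receptors, through a domain of carboxylated glutamates at one end and a receptor-binding region at the other. GAS6 binds all TAM receptors, whereas protein S acts on TYRO3 and MERTK. Signalling through these receptors drives the uptake of apoptotic cells, dampens innate immune responses and, through AXL in particular, is known for its part in the survival and invasion of carcinoma cells.

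ZNF706 itself was examined before any other gene. Its level was 51.9, 55.1 and 54.7 CPM (counts scaled to library size with TMM factors) in the control samples against 33.5, 30.8 and 32.8 CPM with knockdown. All knockdown samples were below all control samples, and the log2 fold change was -0.73 ± 0.05 (SE; adjusted p = 3.7e-05, quasi-likelihood test in edgeR, Benjamini-Hochberg adjusted).

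The cell identity of the samples was checked with marker lists. Summed over 9 epithelial and hepatocyte-lineage markers, the level was 455, 465 and 487 FPKM (fragments per kilobase of gene length, scaled to library size) in the control samples against 454, 469 and 471 FPKM with knockdown. KRT18, a keratin of simple epithelia, contributed most, with a mean of 266 FPKM over the 6 samples. KRT8, also a keratin, was at 193 FPKM in the control group and 200 FPKM in the knockdown group. These keratins made up nearly all of the sum, which therefore says little about the hepatocyte lineage. Of the 9 markers, 5 averaged below 1 FPKM, among them AFP and HNF4A. The level of ALB, the hepatocyte gene for albumin, was 0.77 FPKM in control 1 and 0.5 FPKM in knockdown 3, against 2.17 to 3.57 FPKM in the other 4 samples. COL1A2, a fibrillar collagen gene, had 117 counts in control 1 and 119 counts in knockdown 3, against 0 to 8 counts in the others. These 2 samples thus stood apart from the rest of their own groups in these 2 genes, and values without them are given where they moved a result. Over all tested genes, the deviations of control 1 and knockdown 3 from their group means correlated at only -0.05.

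Markers of other cell types were low or rested on few genes. The 6 macrophage markers in the table summed to 11.0, 10.9 and 11.7 FPKM in the control samples against 17.1, 18.7 and 17.2 FPKM with knockdown, nearly all of it CD68, a lysosomal protein that many cultured lines express. PTPRC, the pan-leukocyte antigen CD45, had at most 8 counts in any sample and MRC1, a macrophage lectin receptor, at most 3. The endothelial list summed to 1.83 to 2.15 FPKM in the control group against 1.44 to 1.69 FPKM in the knockdown group, led by CDH5. The fibroblast list summed to 7.9 to 8.72 and 9.61 to 9.93 FPKM, led by COL1A1. No marker in the table was at 0 in every sample, and 2 macrophage markers (CD163 and AIF1) and 1 endothelial marker (EMCN) were not analysed here. These sums moved with the groups, and their part in the results below was not tested. In bulk samples, fewer cells that express a gene and less RNA of it per cell cannot be told apart.

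The ligands moved in opposite directions. PROS1 (ENSG00000184500, GRCh38 chromosome 3, 93873051 to 93980003, minus strand) had 1545, 1293 and 1385 counts in the control samples against 946, 831 and 1033 counts with knockdown. Scaled to library size, its level was 25.0, 20.3 and 22.6 CPM in the control samples against 13.5, 12.4 and 14.8 CPM with knockdown. The groups did not overlap, and the highest knockdown sample was below the lowest control sample. The log2 fold change of PROS1 was -0.74 ± 0.10 (SE, n = 3 per group), a fall to 0.599 of the control level, and 3.4% of the 18390 genes tested had a lower log2 fold change. Without control 1 and knockdown 3 the log2 fold change of PROS1 was -0.73.

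GAS6 (ENSG00000183087, chromosome 13, 113820549 to 113836044, minus strand) was the ligand that went up. It had 837, 796 and 942 counts in the control samples against 1195, 1219 and 1251 counts with knockdown. Its level was 13.5, 12.5 and 15.3 CPM against 17.0, 18.2 and 17.9 CPM, so that all knockdown samples were above all control samples. The log2 fold change was 0.36 ± 0.09 (SE, n = 3 per group), a 1.28-fold higher level, and 18.4% of tested genes had a higher log2 fold change. The position that the table gives for GAS6 covers 35.6% of the gene in GENCODE 29, whose annotation runs to 113864067. GAS6-AS1, a noncoding gene on the opposite strand that overlaps GAS6, had 8 to 80 counts per sample. The strand setting of the counting is not given in the sources used here, so reads of GAS6 and GAS6-AS1 in their shared stretch cannot be told apart.

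**Figure D1:**
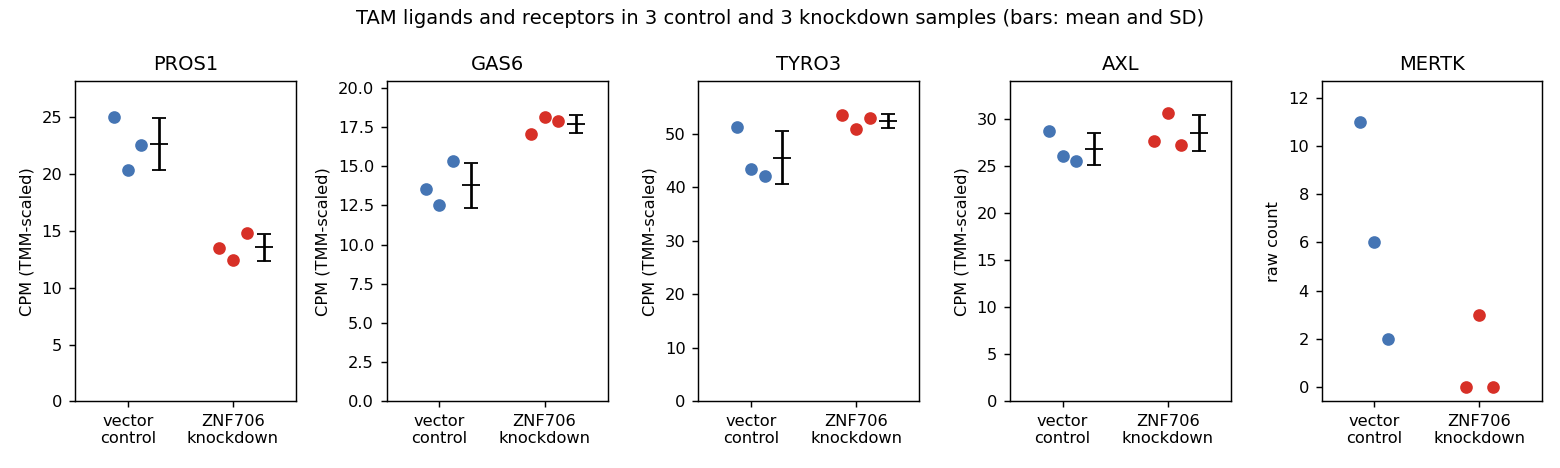
Level of each TAM ligand and receptor in the 3 vector control (blue) and 3 ZNF706 knockdown (red) samples, as TMM-scaled CPM for PROS1, GAS6, TYRO3 and AXL and as raw counts for MERTK, with black bars for the mean and SD. PROS1 and GAS6 show groups that do not overlap, in opposite directions, while TYRO3, AXL and MERTK overlap.

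Because FPKM divides by gene length, it allows the ligands to be set against each other. The level of PROS1 was 4.12, 3.32 and 3.65 FPKM in the control samples against 2.28, 2.1 and 2.49 FPKM with knockdown. The level of GAS6 was 1.95, 1.79 and 2.18 FPKM in the control samples against 2.52, 2.7 and 2.64 FPKM with knockdown. PROS1 was thus the more abundant ligand in every control sample, and GAS6 in every knockdown sample. The ratio of GAS6 to PROS1 in FPKM was 0.473, 0.539 and 0.597 in the control samples against 1.11, 1.29 and 1.06 with knockdown. The same order held in raw counts, where the ratio averaged 0.613 ± 0.069 (SD, n = 3) and 1.31 ± 0.14 (SD, n = 3). The summed level of both ligands was 5.67 ± 0.50 FPKM (SD, n = 3) in the control group against 4.91 ± 0.19 FPKM (SD, n = 3) in the knockdown group. Which ligand is the more abundant in the control group did not depend on the gene length used, with PROS1 above GAS6 also per kilobase of the longest coding transcript (6.31 and 5.54 CPM per kilobase), where their ranges overlapped.

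**Figure D2:**
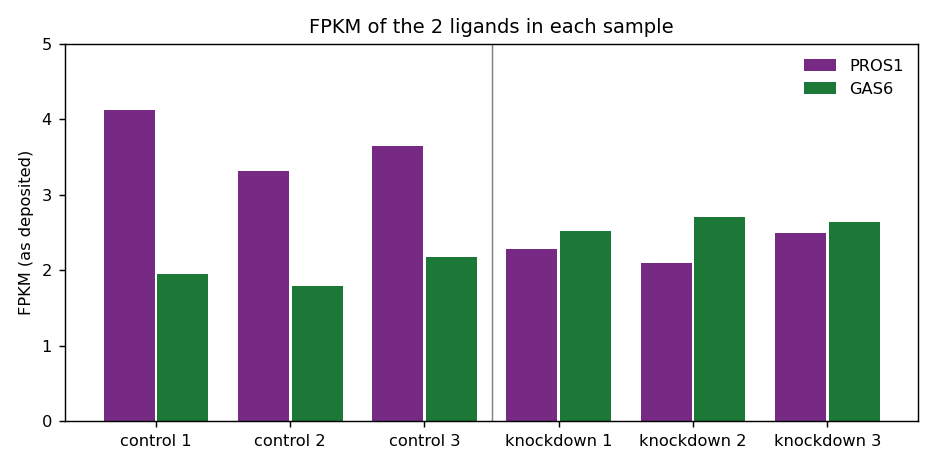
Level of PROS1 (purple) and GAS6 (green) in FPKM, as deposited, in each of the 6 samples. PROS1 exceeds GAS6 in the 3 control samples (4.12, 3.32 and 3.65 against 1.95, 1.79 and 2.18 FPKM), and GAS6 exceeds PROS1 in the 3 knockdown samples.

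The sequences just before the RefSeq start sites of the ligands (GRCh38.p14) are shown because these were the members whose groups did not overlap in CPM. GC boxes, the letters GGGCGG on either strand that Sp1-type factors are known to bind, are in capitals. Neither stretch adjoins the gene position given with the counts, which ends at 93980003 for PROS1 and at 113836044 for GAS6. The PROS1 stretch lies inside that position, and the GAS6 stretch lies outside it, upstream. PROS1 is shown over 30 bases (chr3:93973897-93973926, minus strand) and GAS6 over 150 bases (chr13:113864077-113864226, minus strand).
PROS1: gggagcGGGCGGtctcctCCGCCCccggct
GAS6: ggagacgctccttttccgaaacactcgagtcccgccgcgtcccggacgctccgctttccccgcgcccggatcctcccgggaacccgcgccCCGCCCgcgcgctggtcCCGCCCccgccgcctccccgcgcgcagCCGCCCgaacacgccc
The 250 bases before the start held 2 GC boxes in PROS1, beginning 24 and 12 bases before the start, and 3 in GAS6, beginning 60, 43 and 16 bases before it. TYRO3 had 3, AXL 2 and MERTK 4, and 42.6% of all 35116 RefSeq promoters of that length held at least 1. The E-box CACGTG, the letters that MYC and MAX bind, was in 6.34% of these promoters and in none of the 5 members. The AP-1 letters TGANTCA were in 6.57% of promoters and, among the members, only in TYRO3, and the TEAD letters GGAATG were in 11.9% and in no member. Both strands were searched, no hits of different motifs overlapped, and for TYRO3 and AXL, which have 2 RefSeq promoters each, the one listed earlier was used. The bases before the start were 57.6% G or C in PROS1, 66.8% in GAS6, 64.4% in AXL, 80.0% in TYRO3 and 78.8% in MERTK, against a median of 58% over all promoters.

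Of the receptors, TYRO3 was the most heavily counted. TYRO3 (ENSG00000092445, chromosome 15, 41557675 to 41583589, plus strand) had 51.2, 43.4 and 42.0 CPM in the control samples against 53.5, 50.9 and 52.9 CPM with knockdown. Control 1 lay within the range of the knockdown samples in CPM, and the other 2 control samples lay below it. In FPKM the groups just missed each other, at 3.33 to 4.13 in the control group against 4.22 to 4.43 with knockdown. The log2 fold change was 0.20 ± 0.07 (SE, n = 3 per group) and 0.29 without control 1 and knockdown 3. The pseudogene copy TYRO3P on the same chromosome had 2 to 17 counts per sample, against 2581 to 3750 counts for TYRO3.

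AXL (ENSG00000167601, chromosome 19, 41219223 to 41261766, plus strand), the receptor that binds GAS6 alone, differed little. Its level was 28.7, 26.1 and 25.5 CPM in the control samples against 27.6, 30.6 and 27.2 CPM with knockdown. The groups overlapped, and control 1 was above 2 of the 3 knockdown samples. The log2 fold change was 0.09 ± 0.07 (SE, n = 3 per group), which is near its own error, and it was 0.18 without control 1 and knockdown 3. The ratio of AXL to TYRO3 in FPKM was 1.24 ± 0.05 (SD, n = 3) in the control group against 1.14 ± 0.11 (SD, n = 3) in the knockdown group.

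MERTK (ENSG00000153208, chromosome 2, 111898607 to 112029561, plus strand), the receptor best known from macrophages and the retinal pigment epithelium, had almost no counts in these libraries. It had 11, 6 and 2 counts in the control samples against 0, 3 and 0 counts with knockdown, at total counts of at least 62684076 per sample, and it did not pass the filter on low counts. Its level of at most 0.03 FPKM is far below that of AXL in any sample. A count of 0 in knockdown 1 allows a level of up to 0.0428 CPM. The 3 knockdown counts against 19 control counts gave a ratio, scaled to library size, of 0.142 (95% exact interval 0.027 to 0.484, counting error only). Without control 1, which held 11 of the 19 control counts, the ratio was 0.226 (0.0386 to 0.942), and without both control 1 and knockdown 3 it was 0.342 (0.0584 to 1.42).

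Ordered by FPKM, the control group ran from AXL (4.49 ± 0.33, SD, n = 3) through PROS1 (3.70 ± 0.40) and TYRO3 (3.64 ± 0.43) to GAS6 (1.97 ± 0.20) and MERTK (0.02 ± 0.01). PROS1 and TYRO3 differed by less than the spread between samples, and the other neighbours in that order had ranges that did not overlap. In the knockdown group the order was AXL (4.94 ± 0.34 FPKM), TYRO3 (4.34 ± 0.11), GAS6 (2.62 ± 0.09), PROS1 (2.29 ± 0.20) and MERTK (0.0033 ± 0.0058), with no overlap between the ranges of the 4 genes above MERTK. The order depended on the length used. Per kilobase of the longest coding transcript, an alternative chosen after seeing the data, PROS1 was the highest of the 5 in the control group (6.31 ± 0.65 CPM per kilobase) and GAS6 the highest in the knockdown group (7.11 ± 0.24). On that scale TYRO3, AXL and GAS6 lay within 5.54 to 5.65 CPM per kilobase in the control group and did not differ beyond their spread, whereas PROS1 was the lowest of the 4 in the knockdown group on both scales.

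For scale, 4192 of the 18390 tested genes were called at an adjusted p below 0.05 (22.8%), of which 1906 (10.4%) were higher and 2286 (12.4%) were lower in the knockdown. Scaled by library size alone, 2742 were higher and 1518 were lower. Without knockdown 2 the number called was 2648. In CPM, 39.4% of tested genes had groups that did not overlap, and 2 of the 4 members tested, PROS1 and GAS6, were among them. Since the members were chosen with this contrast in view, nothing is read from this count. The median log2 fold change was 0.0095 over all tested genes, and the median absolute log2 fold change was 0.20.

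Among 52 receptor tyrosine kinases with a row in the table, AXL ranked 12 and TYRO3 ranked 14 by control FPKM, and 18 had a control mean of at least 1 FPKM. MERTK ranked 37. The level of the ephrin receptor EPHA2, the highest of the family in the control group, was 25.6 ± 1.5 FPKM (SD, n = 3), and MET, the receptor for hepatocyte growth factor, followed at 24.6 ± 0.7 FPKM. DDR1, a collagen receptor, IGF1R, the receptor for insulin-like growth factors, EGFR and MST1R made up the rest of the 6 highest, at 23.2, 19.5, 12.1 and 10.6 FPKM. In the knockdown group AXL ranked 11 and TYRO3 ranked 12, and CSF1R, which in the control group lay between them, ranked 10.

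**Figure D3:**
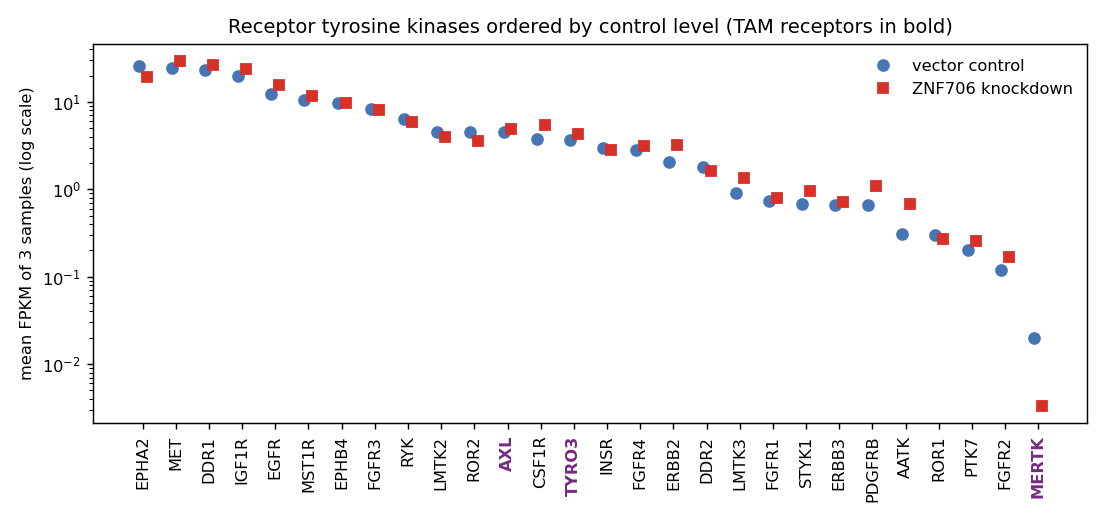
Mean FPKM over 3 samples (log axis) of receptor tyrosine kinases with a control mean of at least 0.1 FPKM, and of MERTK, in vector control (blue circles) and ZNF706 knockdown (red squares) samples, ordered by control level. AXL and TYRO3 rank 12 and 14 of the 52 receptor tyrosine kinases in the table, at 4.49 and 3.64 FPKM in the control group, and MERTK sits at 0.02 FPKM.

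Outside the TAM receptors, 35 receptor tyrosine kinases passed the filter on low counts, of which 9 were higher, 4 were lower and 22 were not called, with a median log2 fold change of 0.10. AATK, a kinase of the lemur family, rose from 4.72 ± 0.36 to 9.92 ± 0.97 CPM (SD, n = 3 per group; log2 fold change 1.07 ± 0.12, adjusted p = 0.000325, quasi-likelihood test in edgeR). ERBB2 rose from 25.0 ± 0.5 to 37.0 ± 1.1 CPM, with a log2 fold change of 0.57. PDGFRB, the receptor for platelet-derived growth factor B, rose by 0.68, LMTK3 by 0.52 and CSF1R, the receptor for macrophage colony-stimulating factor, by 0.49 on the log2 scale. Of the 6 most abundant, EGFR rose by 0.32, IGF1R by 0.22, MET by 0.20 and DDR1 by 0.12, MST1R was not called (log2 fold change 0.10, adjusted p = 0.15, edgeR), and EPHA2 fell from 123 ± 8 to 88.7 ± 1.8 CPM (log2 fold change -0.47). ROR2, a receptor for WNT5A, fell by 0.40, LMTK2 fell by 0.24 and RYK, a WNT co-receptor, fell by 0.16. Leaving out control 1 and knockdown 3 lowered the number of falls to 2, ending the calls of LMTK2, RYK and, among the rises, LMTK3, and single samples also decided the calls of DDR1, LMTK3 and RYK. Scaled by library size alone, RYK lost its call and MST1R gained one.

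Downstream of the receptors, 23 of 24 TAM adaptors and effectors passed the filter, of which 3 were higher, 6 were lower and 14 were not called, with a median log2 fold change of -0.09. SOCS3, an inhibitor of cytokine signalling of the kind that TAM receptors are known to induce, fell from 94.3 ± 4.2 to 66.1 ± 1.3 CPM (SD, n = 3 per group; log2 fold change -0.51 ± 0.04, adjusted p = 7.1e-05, quasi-likelihood test in edgeR). CBL, the ubiquitin ligase that takes activated receptor tyrosine kinases out of service, fell by 0.32 and RAC1, the GTPase that drives engulfment, fell by 0.23 on the log2 scale. The other falls were those of GRB2 and PLCG1, which dock on phosphorylated receptors, and the scaffold BCAR1, with log2 fold changes of -0.21, -0.20 and -0.15. VAV1, an exchange factor for RAC1, rose from 4.45 ± 0.42 to 7.11 ± 0.26 CPM (log2 fold change 0.67). ELMO2, part of the engulfment module with DOCK1, rose by 0.32, and the SRC family kinase FYN rose by 0.25. None of these calls of SOCS3, CBL, RAC1, VAV1, ELMO2 or FYN was lost when 1 sample was left out. SOCS1, SHC1 and PIK3R1 were not called, with log2 fold changes of 0.43, -0.06 and 0.16.

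Of 5 genes for other TAM ligands and for the proteases that shed the receptors, 3 were tested and 0 were called by edgeR, against 1 at an unadjusted p below 0.05 and 1 by DESeq2. For LGALS3, a lectin reported as a MERTK ligand, the log2 fold change was 0.10 ± 0.04 (adjusted p = 0.10, edgeR), which passed the threshold in DESeq2, in limma on FPKM and when scaled by library size alone. ADAM10 and ADAM17, the sheddases of AXL and MERTK, had log2 fold changes of 0.09 and -0.04, and TUB was below the filter. Scaled by library size alone, ADAM10 was called higher and the sign of ADAM17 turned, at a log2 fold change of 0.012. Without knockdown 1, edgeR called 1 gene of the list higher. TULP1 was not analysed here. The absolute log2 fold changes of these 3 genes were below the median of all tested genes, 0.20.

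Maturation of protein S and GAS6 needs carboxylation of their glutamates with reduced vitamin K. Of 9 genes of this cycle, 8 were tested, 3 were lower and 0 were higher (also 0 at an unadjusted p below 0.05 and by DESeq2), and the median log2 fold change was -0.12. NQO1, a quinone reductase, and VKORC1L1, a paralogue of the vitamin K epoxide reductase, fell by 0.19 and 0.14 on the log2 scale, and each lost its call when certain single samples were left out, with 1 fall remaining without control 3 or without knockdown 1. Both also lost their calls when scaled by library size alone, in limma on FPKM and with no filter on low counts, and under each of these the list had 1 fall. The carboxylase GGCX (38.5 ± 1.6 to 34.9 ± 1.6 CPM, log2 fold change -0.14, adjusted p = 0.10, edgeR) and the epoxide reductase VKORC1 (log2 fold change -0.11, adjusted p = 0.12, edgeR) were not called. VKORC1 passed the threshold without knockdown 3 (adjusted p = 0.034, edgeR).

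Of 12 other genes for proteins with the same carboxylated domain, 8 were tested, 1 was lower and 0 were higher (also 0 at an unadjusted p below 0.05 and by DESeq2), and the median log2 fold change was -0.29. In all, 7 of the 10 in the table averaged below 1 CPM, among them the coagulation factor genes F2, F7 and F10. PRRG1, a transmembrane member, fell from 27.1 ± 1.4 to 22.7 ± 0.8 CPM (log2 fold change -0.26, adjusted p = 0.023, edgeR), and the call was lost without control 1, without knockdown 2, without knockdown 3 or when scaled by library size alone. F2 encodes prothrombin and had the lowest log2 fold change of the list, -2.32, at an adjusted p of 0.090 (edgeR). F9 and PRRG3 were not analysed here.

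**Figure D4:**
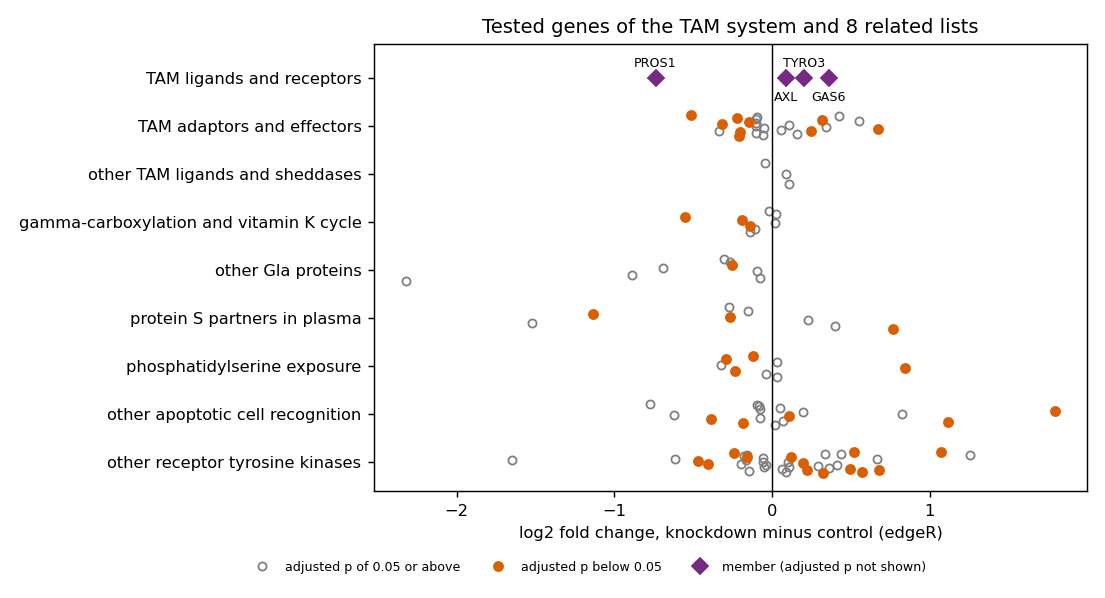
Log2 fold change (knockdown minus control, edgeR) of the 4 tested members (purple diamonds) and of the tested genes of 8 related lists (circles, filled orange where the adjusted p was below 0.05). Of the 109 tested list genes, 17 were higher and 21 were lower, on both sides of 0 in most lists.

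The genes that work with protein S in plasma changed in both directions. All 8 were tested, 1 was higher and 2 were lower, and the median log2 fold change was -0.21. PROCR, the endothelial receptor for protein C, rose from 9.30 ± 0.34 to 15.8 ± 1.2 CPM (SD, n = 3 per group; log2 fold change 0.77 ± 0.09, adjusted p = 0.00048, quasi-likelihood test in edgeR). C4BPA, which encodes the alpha chain of the complement regulator that carries protein S, fell from 5.14 ± 0.39 to 2.33 ± 0.49 CPM (log2 fold change -1.14 ± 0.18, adjusted p = 0.0017, edgeR). TFPI, the coagulation inhibitor for which protein S is a cofactor, fell by 0.27. C4BPB, whose product is the chain that binds protein S, had a log2 fold change of -0.15 and was not called. THBD, F5, F8 and SERPINA5 were not called either and averaged at most 0.26 FPKM in the control group.

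Phosphatidylserine, the lipid that both ligands bind, is kept inside or brought to the surface by flippases and scramblases. Of 9 such genes, 8 were tested, 1 was higher and 3 were lower, and the median log2 fold change was -0.08. PLSCR3, a scramblase of mitochondria, rose from 9.31 ± 1.12 to 16.7 ± 2.3 CPM (log2 fold change 0.84 ± 0.13, adjusted p = 0.0015, edgeR). PLSCR1 fell by 0.23 and TMEM30A, the flippase chaperone, by 0.12 on the log2 scale. Of the 3 falls of the list, 1 remained without control 1 or without control 3 and 0 without knockdown 2 or without both control 1 and knockdown 3. PLSCR1 and TMEM30A also lost their calls when scaled by library size alone. The scramblases ANO6 and XKR8 had log2 fold changes of 0.03 and -0.04.

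Other routes of apoptotic cell recognition held 16 tested genes of 19, of which 3 were higher and 2 were lower, and the median log2 fold change was -0.03. LRP1, an endocytic receptor that binds calreticulin on dying cells, fell from 251 ± 4 to 192 ± 11 CPM (SD, n = 3 per group; log2 fold change -0.39 ± 0.04, adjusted p = 0.00034, quasi-likelihood test in edgeR). ITGAV, the integrin chain that recognises the bridging protein MFGE8, fell by 0.19. ITGB3, a partner chain of ITGAV, rose from 1.13 ± 0.18 to 2.44 ± 0.44 CPM (log2 fold change 1.11 ± 0.23, adjusted p = 0.0069, edgeR), and lost the call without both control 1 and knockdown 3 (adjusted p = 0.068, edgeR). The calls of ADGRB1, a phosphatidylserine receptor near the detection limit at 0.134 and 0.469 CPM, and of SCARB1, a lipoprotein receptor at 352 and 379 CPM, were lost when any 1 sample was left out. The most abundant gene of the list, CALR, at 414 FPKM in the control group, had a log2 fold change of -0.08 and was not called.

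Across the 8 lists, 109 of 141 genes were tested, 17 were higher and 21 were lower, and the median log2 fold change was -0.06 beside 0.0095 over all tested genes. The balance turned when samples were scaled by library size alone, to 23 higher and 14 lower. The share called was 34.9%, beside the 22.8% of all tested genes, and no comparison of these shares was made.

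The genomic neighbours of the members were also examined, out to 100 kb on either side. Of 36 such genes 22 were tested, of which 3 were higher and 1 was lower. DHFR2 and NSUN3, at 67833 and 82977 bases from PROS1, had log2 fold changes of 0.30 and 0.15 and were not called.

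The genes called higher lay near AXL and TYRO3. TGFB1, which encodes transforming growth factor beta 1 and lies 39821 bases from AXL, rose from 59.7 ± 5.7 to 76.9 ± 2.2 CPM (SD, n = 3 per group; log2 fold change 0.37, adjusted p = 0.0025, edgeR). CYP2S1, a cytochrome P450 gene 11684 bases from AXL, rose from 0.933 ± 0.283 to 1.89 ± 0.35 CPM, a call lost without control 2, control 3, knockdown 2 or knockdown 3 and with no filter on low counts. HNRNPUL1, 730 bases from AXL, had a log2 fold change of -0.07 and was not called. ITPKA, an inositol phosphate kinase gene 54124 bases from TYRO3, rose by 0.56. The log2 fold change of GAS6-AS1 was 1.51 ± 0.57 (adjusted p = 0.088, edgeR) and, for GAS6-DT, the divergent noncoding gene upstream of GAS6, it was 1.14 (adjusted p = 0.42, edgeR), both below 1 CPM on average in each group.

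Genes whose pattern over the 6 samples was most like that of a member were named by Pearson's r of log2 CPM among 13579 genes, as a description, since all genes share the same libraries and the group difference. For PROS1 they were RAB8A, CYB5B and TXNRD2, with r from 0.9967 to 0.9982, and 520 genes (3.83%) reached an r of at least 0.95. For GAS6 they were CABCOCO1, RIDA and CUTC, with r from 0.9934 to 0.9984, and 175 genes (1.29%) reached 0.95. For TYRO3 they were WAC-AS1, LINC00525 and RHBDL2, and 67 genes (0.493%) reached 0.95. For AXL they were RNPC3, TPD52L1 and PKD2, and 16 genes (0.118%) did. No such list was made for MERTK, which averaged below 1 CPM.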

How the data were processed

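The authors trimmed reads with cutadapt 1.9, checked them with FastQC and mapped them to GRCh38 with HISAT2, according to the submitters' processing notes and the study's methods. The counting program, its strand setting and the annotation release are not given in the sources used here. The deposited table holds raw counts per gene for each sample, and deposited FPKM values, which the authors made by dividing by gene length and library size. Its gene identifiers, symbols and positions were used, and its pathway and function columns (such as GO and KEGG) were not.

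Counts were tested with edgeR 4.0.16 (R 4.3.3; filterByExpr, TMM, quasi-likelihood test, 3 control against 3 knockdown samples, Benjamini-Hochberg adjustment over 18390 genes, calls at an adjusted p below 0.05), and the test was checked on simulated data. CPM are TMM-scaled, and fold changes come from the edgeR fit at its default settings. The log2 CPM used for Pearson's r and for deviations from group means have a prior count of 2. DESeq2 1.42.0 and limma 3.58.1 (log2(FPKM + 0.1), mean FPKM of at least 1) were alternatives. No libraries were duplicates (chi-square per gene of 12.8 to 22.2 within groups). Intervals cover counting error only, and the floor for a count of 0 was 3 counts.

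The members and lists were chosen with earlier results of these data known. By the naming rule the text gives the members, ZNF706, GGCX, VKORC1, ADAM10, ADAM17 and LGALS3 whatever their values, the 3 called genes with non-overlapping groups that rose and fell most in each list (5 for the receptor tyrosine kinases), the 6 most abundant of those kinases, tested genes within 100 kb of a member, and the 3 genes most like each member. Other genes were chosen for mention after their values were seen. Promoters were taken from RefSeq (GRCh38.p14), which had all 5 members, and gene lengths from GENCODE 29. FLT3, FLT1, KDR, MUSK, EPHA8, ALK and the pseudogene PROS2P were not analysed here. A few genes that the rule would name are not reported here by name and are kept in the counts.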

Additional observations from a re-analysis of the deposited data

How the results depend on the processing

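The log2 fold change was negative for PROS1 and positive for GAS6, TYRO3 and AXL in every alternative run. With 1 sample left out at a time, the log2 fold change ranged from -0.81 to -0.67 for PROS1 and from 0.29 to 0.44 for GAS6. It ranged from 0.15 to 0.29 for TYRO3 and from 0.04 to 0.14 for AXL. The MERTK ratio ranged from 0.107 to 0.226 over the left-out samples other than knockdown 2. That sample held all 3 knockdown counts of MERTK, so no ratio was computed without it. The control FPKM ranged from 3.48 to 3.88 for PROS1, 1.87 to 2.06 for GAS6 and 3.40 to 3.80 for TYRO3. For AXL the range was 4.31 to 4.62 FPKM and for MERTK 0.015 to 0.025 FPKM. Genes called ranged from 2648 to 3424 (1148 to 1485 higher, 1500 to 1939 lower), and list genes from 13 to 15 higher and 15 to 19 lower. Fewer samples were fitted in these runs.

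Scaling by library size alone gave 2742 higher and 1518 lower, against 1906 and 2286, and turned the log2 fold change of ADAM17 to 0.012, as limma on FPKM did (0.007). No filter gave 1253 higher and 1737 lower, with more genes tested. Calling genes in the edgeR fit by unadjusted p (0.05) and a change of 0.3 or more in log2 gave 1767 higher and 1081 lower, with 13 list genes higher and 8 lower, against 17 and 21. The study applied its cutoffs to DESeq2 results. Leaving out control 1 and knockdown 3, chosen after seeing the data, gave 1189 higher and 1631 lower. The cause of these shifts was not tested.

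Control levels were 14.2 (PROS1), 7.55 (GAS6), 14.0 (TYRO3), 17.2 (AXL) and 0.0767 (MERTK) as TPM, 4.16, 2.30, 4.16 and 5.19 CPM per kilobase of all exons, and 6.31, 5.54, 5.55 and 5.65 per kilobase of the longest coding transcript, for the first 4 in that order. The 2 length alternatives were chosen after seeing the data.

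Replicate numbers did not pair the samples: deviations of same-numbered samples correlated at 0.034, -0.036 and -0.016. With the replicate number as a block, 4361 genes were called, and the log2 fold changes were -0.74 (PROS1), 0.36 (GAS6), 0.21 (TYRO3) and 0.09 (AXL), with 16 list genes higher and 21 lower. Among the other named genes only ADGRB1 lost its call under the block.

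Of 637 repeat fits of 46 other named genes, 551 kept the direction and the side of the threshold, 77 lost the call, 7 gained one and 2 reversed. MERTK was compared only as a ratio of 3 to 19 counts.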
